A study of Drosophila melanogaster with 3 samples.

Results

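Oxidative phosphorylation subunit genes encode the nuclear part of the 5 complexes of the mitochondrial inner membrane that turn food-derived electrons into ATP. They were chosen by gene name: protein-coding genes of the Ensembl annotation whose name starts with ND-, UQCR-, COX or ATPsyn, or is SdhA, SdhB, SdhC or SdhD. The rule found 84 of the 13945 protein-coding genes on the 6 nuclear chromosomes and arms used (X, 2L, 2R, 3L, 3R and 4). Complex I, the NADH dehydrogenase, has 40 of them, complex II, succinate dehydrogenase, 4, complex III, the cytochrome bc1 complex, 9, complex IV, cytochrome c oxidase, 16, and complex V, the ATP synthase, 15. Complexes I, III and IV pump protons out of the matrix as electrons pass to oxygen, and complex V makes ATP as the protons flow back. Complex II feeds electrons in without pumping. The nuclear subunits are made in the cytosol, imported and joined with core subunits made inside the mitochondrion, except in complex II, which is wholly nuclear. In the early fly embryo the machinery is largely supplied by the mother, and the embryo's own genes add to it later.

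The data are ChIP-seq peak lists for CG1529, a predicted zinc finger protein carrying GFP at its C terminus. Whole embryos of a transgenic fly line were collected from 0 to 14 h of development, with both sexes pooled. The series holds 3 libraries, biological replicates 1, 2 and 3, in 1 group, with no untreated or mutant group, so every cell type of the embryo is averaged. The labels do not state which promoter drives the fusion or whether untagged CG1529 was still present, and a free-text label names each library an input control although the antibody label names CG1529. The peak lists were called against a separate control alignment, so the libraries were read as ChIP. Nothing in peak lists measures transcription.

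A gene was counted as having a peak when a summit lay within 500 bp of any of its annotated transcription start sites (TSSs), and positions are given on the dm6 build. The joint list that passed the authors' irreproducible discovery rate (IDR) threshold, called the optimal list here, has 3905 distinct peaks from 3921 rows. Each library also has a relaxed list of 30000 rows that mixes peaks with background, and its strongest 3921 peaks by signal were taken as that library's counterpart of the optimal list. The signal of a peak is the authors' own value and was compared only within a list. Read depth is unknown from peak lists. Replicate 1 was the weakest library by q-value: −log10 q at rank 3921 was 1.57, against 3.42 in replicate 2 and 3.92 in replicate 3.

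CG1529-GFP had a promoter peak at 10 of the 84 oxidative phosphorylation genes in the optimal list (11.9%, exact 95% interval 5.86 to 20.8). Among all protein-coding genes the share was 13.3%, so the members' share lay near the background. Complex I had 7 of the 10 peaks (7 of 40, 17.5%, exact interval 7.34 to 32.8), at ND-ASHI, ND-42, ND-MWFE, ND-24, ND-51, ND-SGDH and ND-MNLL. Complex IV had 2 (2 of 16, 12.5%, exact interval 1.55 to 38.3), at COX7B and COX5A, and complex II had 1 (1 of 4, 25.0%), at SdhC. No UQCR- gene of complex III (0 of 9, exact interval 0 to 33.6) and no ATPsyn gene of complex V (0 of 15, exact interval 0 to 21.8) had one. The intervals cover counting error only.

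The libraries gave a like share. Among the strongest peaks of a library, 10 members had a promoter peak in replicate 1, 11 in replicate 2 and 11 in replicate 3, a mean of 12.7% ± 0.687 (SD, n = 3). All protein-coding genes gave 12.5%, 14.2% and 13.7% in the same order. The difference between members and other protein-coding genes was −0.788 ± 0.325 percentage points (SD, n = 3), lower in 3 of 3 libraries, with p = 0.25 by an exact permutation test (two-sided sign flips over libraries), which is the smallest p that 3 libraries allow. With a 1000 bp window the mean difference turned to 2.53 points higher (p = 0.25, same exact test), so its direction rested on the window. Without replicate 1, the weakest library, it was −0.901 points. In the strongest peaks of all 3 libraries together there were 6 members (7.14%), against 8.5% of all protein-coding genes.

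Complex I was above the other members in each library and complex III below them in each. Complex I had 17.5%, 15.0% and 17.5% in replicates 1, 2 and 3, and the other members 6.82%, 11.4% and 9.09%. The mean difference was 7.58 points ± 3.60 (SD, n = 3; exact permutation p = 0.25, adjusted p = 0.625 over 5 complexes). Complex III had 0 in every library against 14.2% ± 0.770 (SD, n = 3) for the other members (exact permutation p = 0.25, adjusted p = 0.625). Complex V had 0%, 13.3% and 6.67%, complex IV 18.8%, 12.5% and 12.5%, and complex II 0%, 25.0% and 25.0%, so for these the sign of the difference from the other members varied among the libraries. Since 3 libraries cannot reach a p below 0.25, none of these differences between complexes could pass. The SDs and p-values cover variation among libraries at the same genes, and not the small number of genes in a complex. Without replicate 1 the difference was 6.02 points for complex I and −14.7 for complex III. For complex I it shrank to 2.58 points at 1000 bp and to 0.606 points with library lists of 7842 peaks (exact permutation p = 0.75), and for complex III it was −6.67 points with lists of 1960 peaks.

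**Figure D1:**
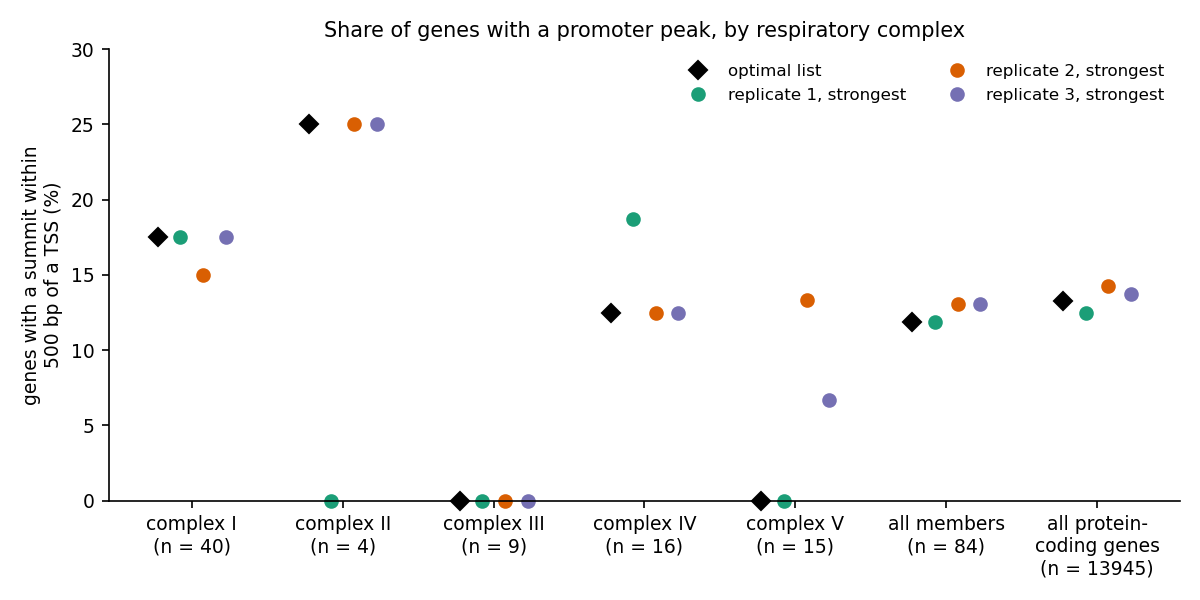
Percentage of genes with a summit within 500 bp of a TSS (y axis) for each complex, all members and all protein-coding genes (x axis, n in brackets). Diamonds show the optimal list and circles the strongest peaks of each library. Complex I lies at 15.0 to 17.5%, complex III at 0 in all 4 lists, and the members as a whole beside all protein-coding genes.

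The strongest member peak was at ND-ASHI, a membrane-arm subunit of complex I, at chrX:6679243-6679500. Its signal in the optimal list was 551, rank 498 of 3905. In the libraries its signal was 194, 142 and 211, at ranks 499, 538 and 530, so its place was nearly the same in the 3 lists. The summit lay 260 bp upstream of the ND-ASHI start and 262 bp upstream of a start of Fum1, the fumarase gene of the citric acid cycle, on the other strand. It falls in an intron of a longer Fum1 transcript. Of the 10 peaks this was the only one with a width other than 436 bp (258 bp).

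Next came ND-42, an accessory subunit of complex I, at chr3R:22027289-22027724 with signal 330.2 (rank 1274). The library signals were 106, 71.3 and 131 at ranks 1417, 2045 and 1295. Its summit lay 202 bp upstream of the ND-42 start but only 27 bp upstream of the start of Cchl, a cytochrome c heme lyase gene, on the other strand. COX7B, a small subunit of complex IV, had a peak at chr3L:17425211-17425646 of signal 317 (rank 1348), with library signals 105, 100.03 and 120.2 at ranks 1453, 1079 and 1489. All 3 libraries held both genes among their strongest peaks. The COX7B summit lay 48 bp upstream of its start and 212 bp from that of Sec3, an exocyst subunit gene.

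SdhC, which encodes a membrane anchor of succinate dehydrogenase, had the weakest of the 10 peaks, at chr3R:11209946-11210381 with signal 164 (rank 3666). Its library signals were 32.9, 52.4 and 78.3, at ranks 7566, 3580 and 2985, so replicate 1, where it was lowest, did not hold it among the strongest peaks. The summit was 315 bp upstream of SdhC and 83 bp upstream of Tctp, whose start was the nearer one. ND-SGDH, an accessory subunit of complex I, had a peak at chr3L:12138422-12138857 of signal 237, with library signals 92.8, 51.4 and 93.5 at ranks 1757, 3717 and 2277. Its summit was 56 bp upstream of its own start, on the side of a divergent neighbour.

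The summit sequences of these 5 peaks are shown because they include the highest signal of each complex that had a peak, the peak closest to a partner's start, and the summit with a match to the nuclear respiratory gene element. Each is the exon-free stretch within 50 bp of the optimal summit, in the member's orientation, read from the reference genome of the same assembly. Capitals mark matches to 2 of the 6 motifs searched, described further on. The G+C content of the stretches runs from 24.7% (ND-42) to 40.6% (SdhC).
ND-ASHI, chrX:6679328-6679428, minus strand: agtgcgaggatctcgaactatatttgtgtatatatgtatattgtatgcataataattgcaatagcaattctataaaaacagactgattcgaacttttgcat
ND-42, chr3R:22027481-22027557, plus strand: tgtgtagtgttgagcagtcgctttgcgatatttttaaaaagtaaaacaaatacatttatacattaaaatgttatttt
ND-SGDH, chr3L:12138590-12138690, minus strand, nuclear respiratory gene element in capitals: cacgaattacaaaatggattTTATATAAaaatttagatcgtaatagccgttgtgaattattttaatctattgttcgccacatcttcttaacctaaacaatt
COX7B, chr3L:17425379-17425476, plus strand: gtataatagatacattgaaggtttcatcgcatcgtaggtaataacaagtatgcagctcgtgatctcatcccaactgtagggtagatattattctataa
SdhC, chr3R:11210114-11210214, minus strand, DRE in capitals: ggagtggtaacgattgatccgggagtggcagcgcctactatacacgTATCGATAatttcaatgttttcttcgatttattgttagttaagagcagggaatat

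The other peaks of complex I and IV were of middle to low signal. ND-51, the flavin-binding subunit that accepts electrons from NADH, had a peak at chr2L:6062596-6063031 of signal 250.1. Its library signals were 88.5, 50.03 and 109 at ranks 1885, 3903 and 1760, so replicate 2 held it only just among its strongest peaks. ND-24, an iron-sulphur subunit beside it in the same electron-input module, had one at chrX:17632018-17632453 of signal 262. Its signals were 81.1 and 113 in replicates 2 and 3, at ranks 1668 and 1672, and replicate 1 listed no summit within 500 bp. ND-MNLL, a small accessory subunit, had one at chrX:7893614-7894049 of signal 165, with library signals 51.2, 41.2 and 66.5 at ranks 3881, 5440 and 3868. COX5A, a nuclear subunit of complex IV, had one at chr3R:11819311-11819746 of signal 175. Its library signals were 78.0, 29.9 and 61.7 at ranks 2260, 9311 and 4346, so it was among the strongest peaks of replicate 1 alone.

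ND-MWFE, a small membrane-arm subunit, had a peak at chr2R:13158266-13158701 of signal 303, with library signals 138, 68.7 and 89.3 at ranks 950, 2167 and 2453. Its summit was 182 bp upstream of its start and 39 bp from that of TppII, a peptidase gene, in whose intron it lies. In all, 6 of the 10 members were among the strongest peaks of 3 libraries, 3 of 2 libraries and 1 of 1 library. Median signal at the 10 was 256, against 255 for all optimal peaks and 280.2 for all protein-coding genes with a promoter peak, and 5 of the 10 were in the stronger 1952 of the optimal peaks. The member peaks were thus of ordinary strength in this list, where signals run from 157 to 3380.1.

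**Figure D2:**
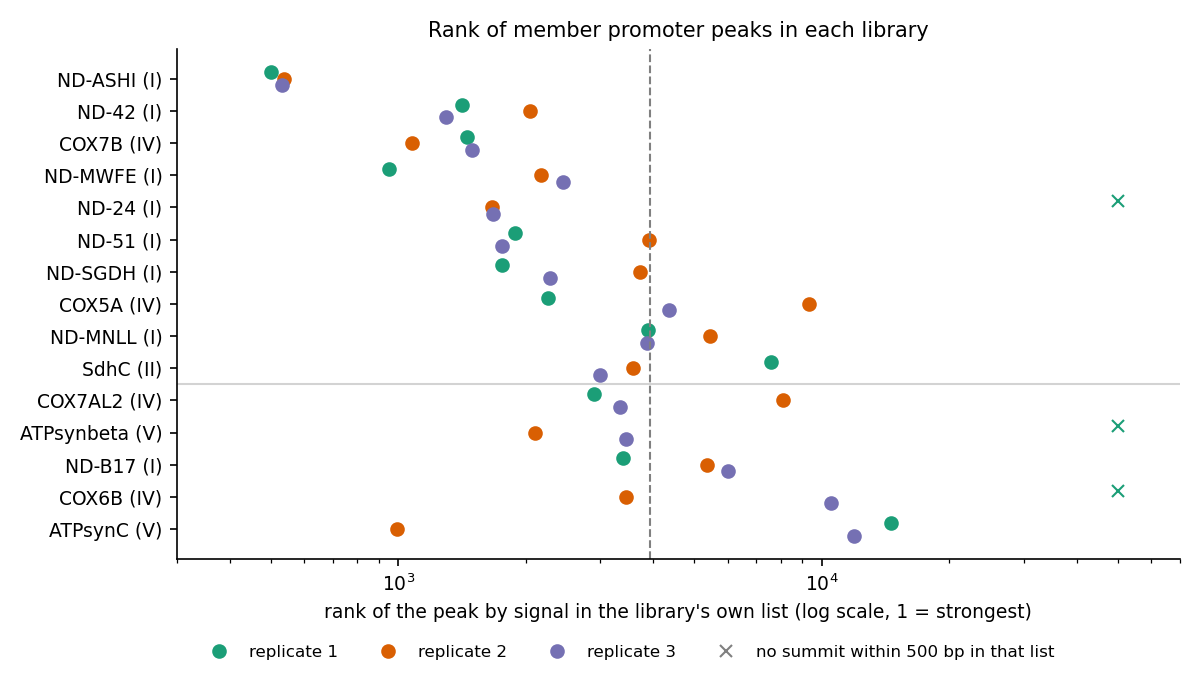
Rank of each peak by signal within each library's own list (x axis, log scale, 1 is the strongest) for the 10 members with an optimal peak (above the grey line, ordered by optimal rank) and the 5 without one that reached the strongest 3921 of at least 1 library (below it). The dashed line is rank 3921 and crosses mark lists with no summit within 500 bp. ND-ASHI lies at 499 to 538 in all 3 libraries, and ATPsynC at 994 in replicate 2 against 11879 and 14557 in the others.

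All 10 optimal summits lay upstream of the member's nearest start, between that start and the start of a protein-coding gene on the other strand. At ND-24 and COX5A the nearest start lies inside the gene. There the summit is downstream of the gene's 5′ end, in an intron of the member itself. At COX5A the partner's start used here, that of glo, also lies inside the COX5A gene. The distance to the nearest start of the member ran from 34 bp (ND-MNLL) to 315 bp (SdhC), with a median position of −77.5 bp. That start and the partner's were 179 to 522 bp apart (median 246.5 bp). Among all 1848 protein-coding genes with an optimal promoter peak, 84.4% had the summit upstream, and the median position was −150 bp, while for 783 (42.4%) the summit lay between divergent starts. The partner's start was nearer than the member's at ND-42, ND-MWFE and SdhC. Other partners included corolla (a synaptonemal complex protein gene) for ND-24, p115 (a Golgi tether gene) for ND-MNLL, glo (an RNA-binding protein gene) for COX5A and CG13994 for ND-51. ChIP of a shared promoter does not tell which of the paired genes a peak belongs to, and 7 of the 10 peaks are nearest to the member, with ND-MNLL tied at 34 bp with CG45089 on the same strand.

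Placed on the start nearest the optimal summit, the listed library summits lay upstream at 9 of the 10 members. The exception was ND-SGDH, at 16 bp downstream in replicate 2, 29 bp upstream in replicate 1 and 81 bp upstream in replicate 3. Measured instead to the nearest start of the gene in each library, 7 of the 10 were upstream in all 3 libraries. By that measure the replicate 2 summits of ND-24 and COX5A were 81 and 20 bp downstream of a start. Between libraries the summit of a member moved by 11 bp (ND-MNLL) to 160 bp (COX5A), with a median range of 69 bp. At COX5A and ND-42 the summit of replicate 2 lay beyond the partner's start. For 9 of the 10 optimal peaks the width was a fixed 436 bp, so the positions carry that coarseness.

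**Figure D3:**
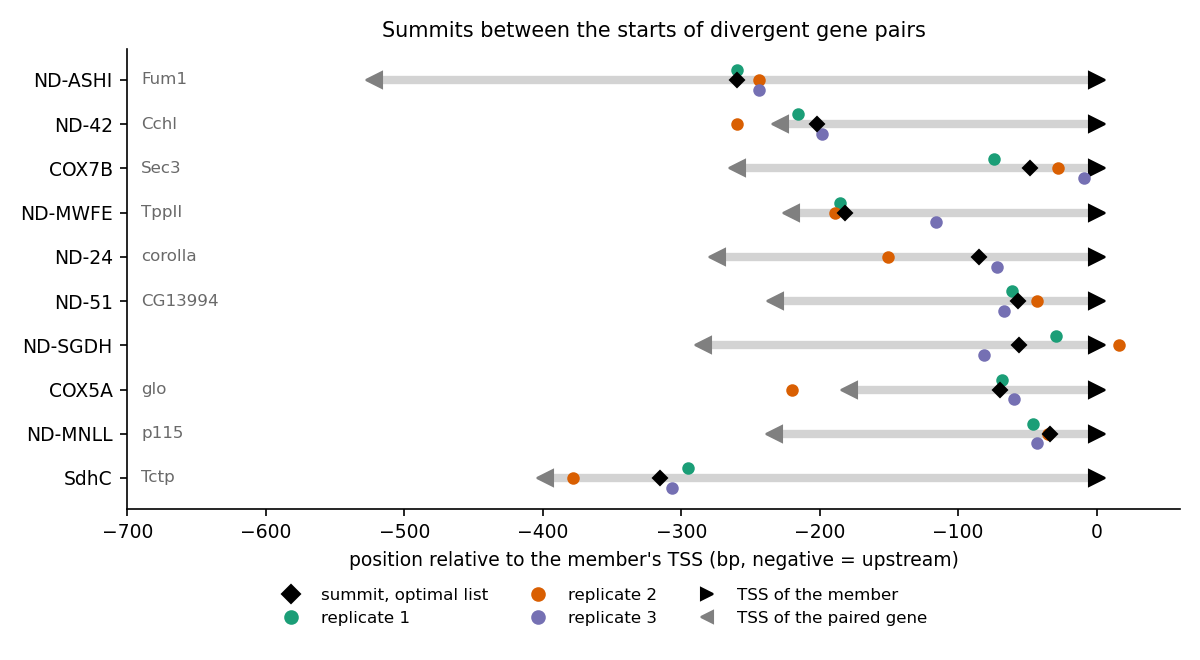
Position of the summits in the optimal list (black diamonds) and in each library (circles) relative to the member's TSS nearest the optimal summit (x axis, bp, negative is upstream). For ND-24 and COX5A this TSS lies inside the gene, and for COX5A the partner's start does too. The start of the divergent partner is a grey triangle, named at the left for 9 of the 10. All 10 diamonds lie between the 2 starts, which are 179 to 522 bp apart.

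Divergent promoters were common among these genes, and all 10 peaks were at members that had one within 500 bp. Of the 84 members, 39 (46.4%) had a start of another protein-coding gene facing away from their own within 500 bp upstream, against 27.4% of all protein-coding genes. An optimal peak was at 10 of those 39 members (25.6%) and at 0 of the 45 others. For all protein-coding genes the shares were 24.3% and 9.09%, so members with a divergent partner were close to other such genes. This arrangement was looked at after the neighbours of the 10 peaks had been seen, and it was not tested. With partners required within 250 bp the counts were 7 of 25 and 3 of 59, beside 20.6% and 12.0% of all protein-coding genes. Within 1000 bp they were 10 of 43 and 0 of 41, beside 21.9% and 8.33%. For ND-ASHI the partner within 500 bp is met at another pair of starts of the same genes, 263 bp apart.

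**Figure D4:**
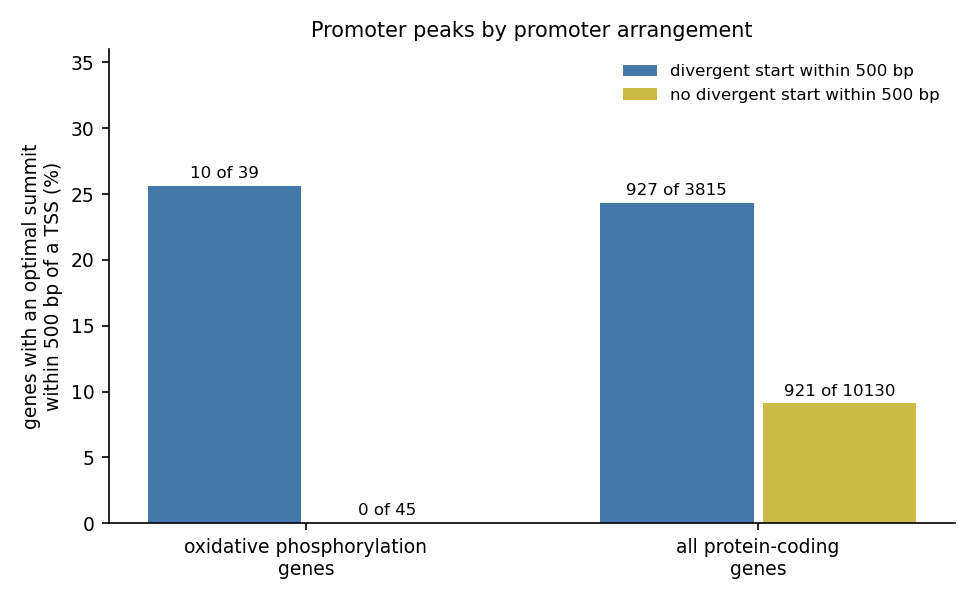
Percentage of genes with an optimal summit within 500 bp of a TSS (y axis, from 0) for genes with (blue) and without (yellow) a divergent protein-coding start within 500 bp, with counts above the bars. Members with a divergent start stand at 25.6%, beside 24.3% of all protein-coding genes, and members without one at 0 of 45.

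By complex, 20 of 40 complex I genes, 1 of 4 complex II, 2 of 9 complex III, 7 of 16 complex IV and 9 of 15 complex V genes had a divergent start. Peaks were at 7 of the 20, 1 of 1, 0 of 2, 2 of 7 and 0 of 9. Complex V therefore had the highest share of such promoters of the 5 complexes and no optimal peak at its 9. Of all protein-coding genes with a divergent start, 24.3% had one. The 9 include ATPsynbetaL and ATPsynepsilonL, copy genes named with a final L, and the difference was not tested. Members with a divergent start and no peak included ATPsynD, an ATP synthase stalk gene paired with the mitochondrial ribosomal protein gene mRpL55. In complex I they included ND-B16.6, paired with kdn, which encodes citrate synthase.

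Some complex V genes were listed below the IDR threshold, where the lists mix peaks with background, and not evenly among libraries. The whole relaxed lists held 20%, 53.3% and 40% of the 15 genes in replicates 1, 2 and 3. All protein-coding genes gave 33.1%, 49.1% and 44.9%, so complex V was above them in replicate 2 alone. ATPsynC, which encodes the proton-driven ring, ranked 994 in replicate 2 with signal 105, its summit 46 bp downstream of a start. In replicates 1 and 3 it ranked 14557 and 11879, with summits 321 and 488 bp downstream, so the strong peak stood in 1 library. ATPsynbeta, the catalytic subunit on chromosome 4, ranked 2097 in replicate 2 and 3446 in replicate 3 and was not listed in replicate 1. ATPsynE, a small membrane subunit, ranked 6014 and 4582 in replicates 2 and 3 and had its nearest optimal summit 820 bp downstream. The relaxed list of the pooled libraries held no summit within 500 bp of a start of ATPsynbeta or ATPsynE.

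The other members named here had no optimal promoter peak and are those of best median rank in their complex or nearest to the window. Several of the ranks lay past the median of all listed protein-coding genes, 6803.5, 7579 and 7562 in replicates 1, 2 and 3. COX7AL2, a complex IV copy gene, had an optimal summit 504 bp downstream of a start, in its 5′ UTR, just outside the window (chr2L:2197190-2197625, signal 172), and summits 480 and 493 bp downstream in replicates 1 and 3 at ranks 2903 and 3328. ND-B17, an accessory subunit, ranked 3400, 5362 and 5991, and COX8, a small complex IV subunit, 7322, 5141 and 7252, all upstream of their starts. COX6B ranked 3456 in replicate 2 and 10510 in replicate 3 and was absent from the list of replicate 1. ND-15 (8797 and 5160 in replicates 2 and 3) and ND-B18 (9223, 14473 and 9420) followed in complex I. In complex III the best was UQCR-C2, a core subunit, at ranks 7005 and 4939 in replicates 2 and 3 with summits 1 and 3 bp upstream of a start, followed by UQCR-Q (17208 and 14218 in replicates 2 and 3) and UQCR-6.4L (17222 and 11961 in replicates 1 and 2). In complex II SdhB, the iron-sulphur subunit, ranked 4392 and 6761 in replicates 2 and 3, SdhD, an anchor, 20880 and 7009, and SdhA, the flavoprotein, 6264 and 23859, and none of these 3 was listed in replicate 1. The optimal summit next nearest outside the window was that of ND-75, the largest subunit of complex I, 757 bp upstream and 226 bp upstream of CG1632.

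In the whole relaxed lists, which include background, 27 members were listed in replicate 1 (32.1%), 50 in replicate 2 (59.5%) and 41 in replicate 3 (48.8%). All protein-coding genes gave 33.1%, 49.1% and 44.9%. The share in all 3 lists was 20 of 84 (23.8%) against 22.6%. Absent from every list were 24 members (28.6%), against 38.0% of all protein-coding genes. The median rank of the listed members was 7322, 9011 and 8560, and of all listed protein-coding genes 6803.5, 7579 and 7562. The members listed were therefore of somewhat lower rank than the listed protein-coding genes at large in each library.

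No copy of a subunit gene had an optimal summit within 500 bp of a start, and 2 had one within 1000 bp, COX7AL2 and UQCR-6.4L. In Drosophila, many nuclear respiratory genes have a duplicate, named with a final L, that is expressed mainly in the testis, while the parent gene is used throughout the body. By the rule of a member name followed by L there were 14 copies, and 0 had an optimal peak. By a wider rule chosen after the names were seen, a name ending in L or L and a digit, there were 21, also with 0 (exact interval 0 to 16.1), against 10 of the 63 other members (15.9%, exact interval 7.88 to 27.3). Without the 21 copies complex IV stood at 2 of 8 (25.0%) and complex I at 7 of 34 (20.6%), so the order of these 2 complexes turned with the copies. Among the strongest peaks there was 1 copy in replicate 1, 0 in replicate 2 and 1 in replicate 3. In the whole lists the 21 copies were at 28.6%, 14.3% and 14.3% in replicates 1, 2 and 3, and the 63 others at 33.3%, 74.6% and 60.3%. In the lists of replicates 2 and 3 the copies lay below the protein-coding background and the others above it, while in replicate 1 both lay near it. Only 1 copy, COX7AL2, was in all 3 lists. Absent from every list were 13 of the 21 (61.9%), against 11 of the 63 others (17.5%) and 38.0% of all protein-coding genes. Of the 21 copies, 3 (14.3%) had a divergent start within 500 bp, against 36 of the 63 others (57.1%), and the part of this in the difference was not tested.

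Subunit genes whose names the rule leaves out were counted apart, together with the cytochrome c genes Cyt-c-p and Cyt-c-d, which encode no subunit of a complex. Of these 9 genes, blw, levy and Cyt-c-d had an optimal promoter peak (33.3%, exact interval 7.49 to 70.1), beside 13.3% of all protein-coding genes. The gene blw, which encodes the alpha subunit of ATP synthase, had a peak of signal 274 at −185 bp from its start, at ranks 1353, 3877 and 1809. Adding blw and sun to complex V gives 1 of 17. The peak of levy, a complex IV subunit gene, had signal 175 and lay 56 bp from a start of wmd, and it ranked 11721 and 3340 in replicates 2 and 3 and was absent from replicate 1. Adding levy and cype gives 3 of 18 for complex IV, and adding RFeSP, Cyt-c1 and ox leaves 0 of 12 for complex III. With these 7 genes the family stands at 12 of 91 (13.2%). Cyt-c-d, the cytochrome c gene known for its role in sperm, had a far stronger peak, signal 1185 at rank 78 and at ranks 99, 45 and 111 in the libraries, at 360 bp from its start and at −126 bp from that of CG31808, the nearest. Its paralog Cyt-c-p had none in the optimal list.

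Other mitochondrial energy genes were counted in 4 lists, to be read against the 13.3% of all protein-coding genes. Assembly factors had peaks at 2 of 9 (22.2%, exact interval 2.81 to 60.01), CIA30 (signal 693), an assembly factor gene of complex I that lies beside the nearer start of CG7601, and Cox17 (signal 289), a copper chaperone gene of complex IV. Citric acid cycle and pyruvate dehydrogenase genes had them at 3 of 17 (17.6%, exact interval 3.80 to 43.4), Idh3g (signal 703), an isocitrate dehydrogenase subunit gene, Fum1 (signal 551, the peak shared with ND-ASHI) and mAcon1 (signal 278), an aconitase gene. All 5 of these genes were among the strongest peaks of each library. Carriers had 1 of 6 (16.7%, exact interval 0.421 to 64.1), at Ucp4A (an uncoupling protein gene, signal 322). Regulators of mitochondrial genes had 1 of 8 (12.5%, exact interval 0.316 to 52.7), at ERR (a nuclear receptor gene of metabolism, signal 216, nearer to a start of Atg18a). The ranks of the ERR peak were 1021, 8018 and 4188, so it was among the strongest peaks of replicate 1 alone.

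The promoters of the members were scanned for 6 motifs in the 300 bases from 250 before to 50 after each gene's 5′ end, on both strands. The nuclear respiratory gene element, described at many Drosophila respiratory genes (TTACATAA, TTACGTAA, TTATATAA or TTATGTAA), was in 5 of 84 (5.95%) against 5.18% of all protein-coding promoters. It was in 3 of the 10 promoters with an optimal peak (ND-42, ND-MNLL and ND-SGDH) and in 2 of the 74 others (ND-30 and ND-49), and all 5 were complex I genes. Of all 1848 protein-coding genes with an optimal promoter peak, 6.17% had it. GGTCACAC, the core of the motif of the promoter factor M1BP, was in 16 of 84 (19.0%) against 7.70%. It was in 3 of the 10 with a peak (COX5A, COX7B and ND-MWFE) and 13 of the 74 without, beside 9.42% of the 1848. The DRE, TATCGATA, was in 9 of 84 (10.7%) against 9.36%, the ERR site AAGGTCA in 1 (1.19% against 2.11%), the E-box CACGTG in 4 (4.76% against 4.20%) and ATTTAAAA in 15 (17.9% against 14.2%). GGTCACAC and AAGGTCA share the letters GGTCA and can overlap, and a match says only that the letters are present.

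Within 50 bp of the 10 optimal summits the DRE was found at 1, SdhC (against 2.00% of the 1848 genes with a promoter peak). That match lies outside the promoter window of SdhC, and the summit is nearer to Tctp. The nuclear respiratory gene element was found at 1, ND-SGDH (against 3.41%), and ATTTAAAA at 1, COX5A (against 7.58%), while GGTCACAC, AAGGTCA and CACGTG were in none (against 0.920%, 0.649% and 0.541%). The 3 promoters with GGTCACAC and a peak therefore held it outside the summit window. G+C in these summit windows had a median of 30.2%, from 26.7% to 40.6%, and 31.7% for all protein-coding genes with a peak. The promoters of the 84 members had a median G+C of 34.2%, and those of all protein-coding genes 38.0%.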

How the data were processed

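Peak positions are on dm6, per the labels. The authors deposited 1 relaxed list per library, 1 for the pooled libraries and 1 optimal list thresholded by IDR, per the listings beside the files. The sources used here name no aligner, peak caller, IDR threshold or scaling of the signal to the control. Column 7 is the authors' signal and column 9 their −log10 q-value, as deposited. No column was left without a library (0).

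Genes came from Ensembl release 115, whose assembly matches dm6, and every peak ended within its chromosome in the reference FASTA. Identical intervals were merged and peaks ranked by signal. The strongest of several summits within 500 bp of a TSS was used. Chromatin was sonicated, with a size range of 200 to 800, per the labels. Each library has its own biological replicate number and biosample in the labels. Tests were exact sign flips over libraries, with Benjamini-Hochberg adjustment over the 5 complexes. Lists and complexes got counts with exact (Clopper-Pearson, 95%) intervals and no test. Assignment was tested on simulated data. Motif windows at summits were 101 bp.

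The members, lists, motifs and alternatives were chosen with earlier results of these data known. The named genes are all members with an optimal peak, up to 3 further members per complex by median rank, the members nearest the window's edge, and up to 4 genes per other list by signal. Alternatives were other TSS windows, the gene's 5′ end alone, nearest gene only, stronger peaks, intervals that cover a TSS, library lists of 1960 and 7842 peaks, summit windows for motifs, and leaving out each replicate. Of the names fixed for other lists, 3 assembly factors, 2 citric acid cycle genes and 2 regulators were not matched. Python 3.11.15, numpy 2.4.6, scipy 1.17.1 and matplotlib 3.10.9 were used.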

Additional observations from a re-analysis of the deposited data

How the results depend on the processing

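The optimal count of 10 stayed between 7 and 14 with windows of 250 bp (8) or 1000 bp (14), the 5′ end alone (10), the nearest gene alone (7) and intervals that cover a TSS (8), while all protein-coding genes ran from 7.45% to 15.8%. In the stronger 1952 peaks the count was 5 members (5.95%, against 7.64% of all protein-coding genes), 4 of complex I and 1 of complex IV. The peak of complex II was lost (0) at 250 bp, with the nearest gene alone, with the stronger peaks and with intervals that cover a TSS, and complexes III and V gained 1 each at 1000 bp. The mean share of members was 5.95% with library lists of 1960 peaks, 23.0% with 7842, 10.3% at 250 bp and 18.7% at 1000 bp, and 12.5% to 13.1% without each replicate. Members in the strongest peaks of every library used were 2 with the shorter and 10 with the longer lists, and 6 to 9 without each replicate. Those in every whole list were 21 to 35, the 35 being without replicate 1. For these alternative counts over several libraries the share of all protein-coding genes was not taken, so they describe the members only.

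The difference from other protein-coding genes turned to 1.04 points with the longer lists, 0.109 at 250 bp and 2.53 at 1000 bp, and stayed at −0.901 to −0.602 without each replicate. Complex II minus the other members turned to −6.25 with the shorter lists and −10.8 at 250 bp, was 37.1 with the longer lists, and was 0 to 12.5 without each replicate. Complex IV turned to −2.45 at 1000 bp and ran from −0.735 (without replicate 1) to 3.86 without each replicate, and was 5.02 with the longer lists. Complex V turned to 1.64 at 1000 bp and was −11.2 to −3.77 without each replicate. Complex I (0.606 to 9.55) and complex III (−14.7 to −6.67) kept their sign in the alternatives run. None of these exact permutation tests could pass. The cause of these turns was not tested. In the summit window GGTCACAC, AAGGTCA and CACGTG each fell to 0%, and ATTTAAAA was at 10%, of 10 peaks. Alternatives for the differences between a complex and the other members and for the spacing of divergent starts were chosen after seeing the data. Complexes of 4 to 40 genes, 3 libraries and an unknown read depth limit what could be seen. No comparison between groups was possible because there is 1 group.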
